A study of Mus musculus with 58 samples.

Results

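Endothelial identity genes are transcribed mainly in the cells that line blood vessels. A set of 10 such genes, listed by name with earlier results of these data known, was followed through RNA-seq of mouse prefrontal cortex: Cldn5, Sox17, Sox18, Foxq1, Tek, Emcn, Pecam1, Flt1, Kdr and Slco1a4. All 10 symbols matched an identifier among the 18088 genes of the deposited table, and all 10 passed the filter on low values. The 58 mice were C57BL/6J, labelled heterozygous (HT, 29 mice) or wild type (WT, 29 mice) for Tanc2, which encodes a synaptic scaffold protein, and both sexes were included. Nursing pups were exposed through the milk to vehicle, to the serotonin reuptake inhibitor fluoxetine or to lithium, an inhibitor of GSK3 and of inositol phosphatases. Exposure ran from postnatal day 3 to day 24, and cortex was taken at day 25. The 6 arms of genotype and drug held WT vehicle (9 mice), WT fluoxetine (10), WT lithium (10), HT vehicle (10), HT fluoxetine (10) and HT lithium (9). In each arm the sexes held 5 mice each, except that WT vehicle and HT lithium had 4 males.

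The labels give neither the altered part of Tanc2 nor the dose, and they name no litter. The p-values therefore treat mice as independent although the drug came through dams. Tanc2 itself was not lower in mice labelled HT (log2 difference from WT of 0.10 ± 0.04 (SE) under vehicle, limma adjusted p = 0.947), so its level does not check the labels, and HT and WT below mean the labels. Recovered reads ran from 23271044 to 37801615 per library. In bulk tissue, fewer endothelial cells and less RNA per cell cannot be told apart. Reads assigned to Gm10221, a processed pseudogene, were found in all 19 lithium libraries, in 5 of 5 HT fluoxetine females and in 3 of 5 WT fluoxetine females, and in none of the other 31 libraries. The mitochondrial transcript mt-Atp6 was also higher under both drugs (1.20 ± 0.14 under lithium and 0.65 ± 0.14 under fluoxetine over both genotypes, limma adjusted p = 3.455e-09 and 0.001173). The labels name no batch. Whether these reads mark a difference between libraries, and whether that takes part in a drug effect, was not tested directly. The comparisons of drugs and of genotypes with the sexes weighed together were recomputed with a term for Gm10221 reads. So was that of the sexes over all arms. With that term no member passed for lithium against vehicle. All lithium libraries and no vehicle library held these reads, so within arms they varied only under fluoxetine, and SEs were larger. A lost call here therefore cannot tell a smaller difference from a less certain one. With the term Foxq1 stood at 0.33 ± 0.15 over both genotypes and at 0.41 ± 0.17 in HT mice, Tek at -0.24 ± 0.13 in HT mice and Sox18 at 0.31 ± 0.17 in WT mice (limma adjusted p = 0.2711, 0.2409, 0.3702 and 0.4154). Without the term Foxq1 in HT mice stood at 0.33, Tek in HT mice at -0.30 and Sox18 in WT mice at 0.37. For Emcn the difference was smaller with the term. It stood at -0.11 ± 0.14 over both genotypes and at -0.12 ± 0.16 in WT mice, against -0.29 and -0.31 without the term.

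Brain endothelium forms the blood-brain barrier. Its cells are sealed by tight junctions, carry transporters in place of open pores, and keep this state under WNT signals from neural tissue. Vascular endothelial growth factor (VEGF) and angiopoietins act on receptors at the endothelial surface, and transcription factors of the SOX, FOX and ETS families drive the endothelial programme. Among the members, Sox17 and Sox18 encode SOX factors of endothelial and arterial identity, and Foxq1 a forkhead factor that is enriched in brain endothelium. Tek encodes the receptor of angiopoietins, Kdr the main signalling receptor of VEGF, and Flt1 a VEGF receptor that also acts as a decoy. Pecam1 and Emcn encode an adhesion molecule and a sialomucin of the endothelial surface. Cldn5 encodes the main claudin of the barrier's tight junctions, and Slco1a4 an organic anion transporter of the barrier.

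The start regions of 4 members are shown because these genes carry the results on receptors and surface proteins. Over both genotypes Tek and Emcn were lower under both drugs, though neither passed with a term for Gm10221 reads. Kdr was higher under fluoxetine in HT mice, and Flt1 was the member whose level followed Tek most closely. The sequences are RefSeq promoters on GRCm38.p6, bases 250 to 51 before the start site, 5′ to 3′ on the strand of the gene. Capitals mark matches to the ETS core GGAAG and to the SOX motif AACAAT, each read on both strands.
Tek: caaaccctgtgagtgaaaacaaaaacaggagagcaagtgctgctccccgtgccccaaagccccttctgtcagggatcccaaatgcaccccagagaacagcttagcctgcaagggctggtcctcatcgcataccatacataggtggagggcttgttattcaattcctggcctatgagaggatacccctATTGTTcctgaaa
Emcn: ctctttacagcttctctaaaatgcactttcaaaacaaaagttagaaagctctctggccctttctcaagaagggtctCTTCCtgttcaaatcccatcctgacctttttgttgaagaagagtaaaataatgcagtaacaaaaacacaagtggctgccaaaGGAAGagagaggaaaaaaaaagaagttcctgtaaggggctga
Kdr: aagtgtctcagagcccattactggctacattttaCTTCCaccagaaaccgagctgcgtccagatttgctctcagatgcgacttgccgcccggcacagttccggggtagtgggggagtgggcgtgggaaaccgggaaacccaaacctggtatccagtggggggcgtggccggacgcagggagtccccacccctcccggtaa
Flt1: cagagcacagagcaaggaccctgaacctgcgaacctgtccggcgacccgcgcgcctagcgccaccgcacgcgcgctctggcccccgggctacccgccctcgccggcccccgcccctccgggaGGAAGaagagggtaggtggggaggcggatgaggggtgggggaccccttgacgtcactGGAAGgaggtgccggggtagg
Tek lies on the plus strand at chr4:94739039-94739238, Emcn on the plus strand at chr3:137340828-137341027, Kdr on the minus strand at chr5:75978506-75978705 and Flt1 on the minus strand at chr5:147726062-147726261. RefSeq start regions were given for 6 of the 10 members, these and Cldn5 and Slco1a4. An ETS match stood in 4 of the 6 (2 matches each in Emcn, Flt1 and Slco1a4, 1 in Kdr), against 54.594% of 27025 start regions of the same length. The SOX motif stood in Tek and Slco1a4 (1 match each), against 8.126% of all. The KLF motif CACCC stood in 5 of the 6 against 43.904%, and the GC box GGGCGG in 2 against 24.54%, with 2 matches in Flt1 and 1 in Kdr. The TCF/LEF motif CTTTGA and the TATA motif TATAAA stood in none of the 6, against 11.985% and 9.484%. GC content was 73.0% in Flt1, 61.0% in Kdr, 51.5% in Tek and 39.5% in Emcn, against a median of 51.5%. All motifs were read on both strands, and no match overlapped another in these 6 windows. These matches describe letters in a window and show no binding.

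The members differed widely in level. As mean normalized reads (reads divided by a library's size factor) per kilobase of exon over 58 mice, Cldn5 stood at 682, above 89.1% of the genes tested, and Slco1a4 at 246. Flt1 (116), Sox18 (105), Pecam1 (97.0), Tek (95.7) and Kdr (83.4) lay near the middle of all genes. Sox17 (36.8), Emcn (29.7) and Foxq1 (19.4) were the lowest. The 5 defining markers Cldn5, Pecam1, Flt1, Kdr and Tek were read in every mouse, Tek with at least 299 normalized reads. The endothelial label of the set therefore had detected markers in every library.

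The first question was what each drug did to these genes. Under fluoxetine the 3 transcription factor genes were higher and Tek and Emcn lower, while Cldn5, Pecam1, Flt1 and Slco1a4 had differences near 0 on average. Over both genotypes Foxq1 rose by 0.48 ± 0.08 (log2, SE), a fold of 1.4, with limma adjusted p = 9.736e-06. Sox18 rose by 0.45 ± 0.07 (1.36-fold, adjusted p = 3.008e-05) and Sox17 by 0.27 ± 0.06 (1.2-fold, adjusted p = 0.00538). Tek fell by 0.24 ± 0.06 (adjusted p = 0.009833), and Emcn fell by 0.22 ± 0.07 (adjusted p = 0.04751). The Emcn call ended on leaving out any of 35 of the 58 libraries (adjusted p up to 0.0871) and with a term for Gm10221 reads (adjusted p = 0.4791). These 5 of 10 members compare with 6.15% of the 17925 genes tested (2.68% higher and 3.47% lower). Kdr, at 0.16 ± 0.07 (adjusted p = 0.1606), did not pass. The remaining members had 95% intervals of -0.10 to 0.11 (Cldn5), -0.10 to 0.13 (Pecam1), -0.10 to 0.16 (Flt1) and -0.17 to 0.06 (Slco1a4). These limma tests used log2(value + 1), a Benjamini-Hochberg adjustment over all genes tested and a threshold of 0.05, as did all adjusted p below.

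**Figure D1:**
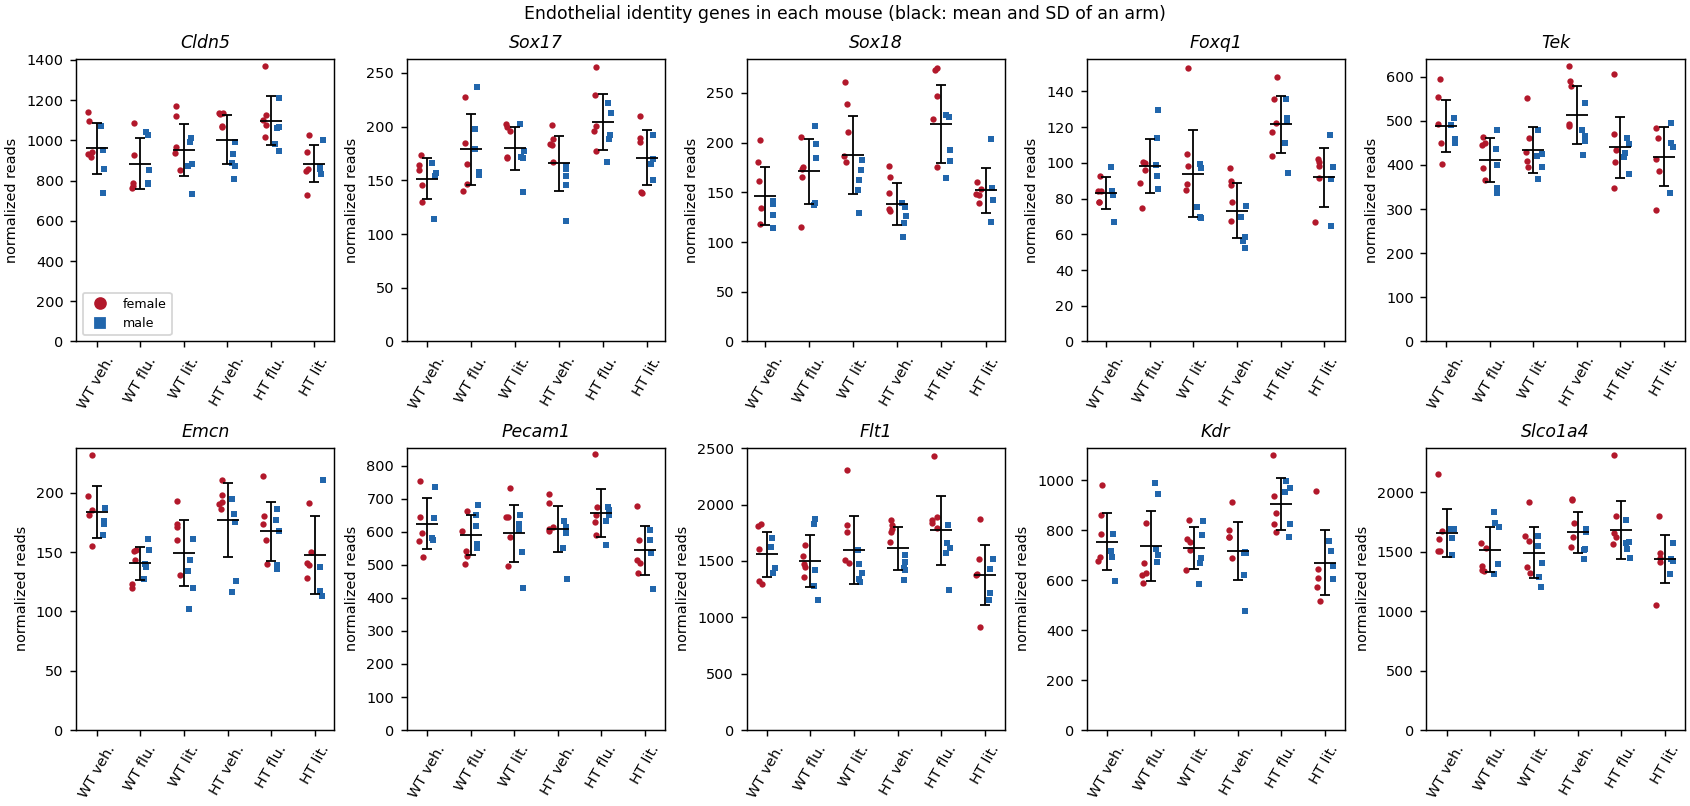
Normalized reads of the 10 members in each mouse (vertical axes, from 0), by arm of genotype and drug (horizontal axes; veh., vehicle; flu., fluoxetine; lit., lithium). Red circles are females, blue squares males, and black bars the mean and SD of an arm of 9 or 10 mice; for Foxq1, 9 of the 10 HT fluoxetine mice lie above every HT vehicle mouse.

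In HT mice Foxq1 was higher under fluoxetine. The HT vehicle females had 89.8, 78.3, 67.5, 87.5 and 97.2 normalized reads of Foxq1 and the males 56.3, 52.4, 69.6, 58.4 and 76.0. The HT fluoxetine females had 148, 117, 104, 122 and 136, and the males 136, 125, 94.5, 111 and 124. Of the 10 treated mice 9 lay above the highest vehicle mouse, and the tenth, a male, lay above every vehicle male. The rise was 0.74 ± 0.10 (1.67-fold, limma adjusted p = 4.352e-06). Within each sex it was 0.57 ± 0.15 in HT females (adjusted p = 0.02331) and 0.91 ± 0.15 in HT males (adjusted p = 0.0005478). The males of both arms held no Gm10221 reads.

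Sox18 also rose in the HT mice. The HT vehicle females had 150, 176, 165, 131 and 133 normalized reads of Sox18, and the males 119, 126, 139, 105 and 135. The HT fluoxetine females had 275, 247, 224, 273 and 176, and the males 228, 226, 164, 193 and 182. Of these treated mice 8 lay above the highest vehicle mouse, and all 10 above the vehicle mean of their sex. The rise was 0.66 ± 0.10 (1.58-fold, limma adjusted p = 3.416e-05), with 0.65 ± 0.15 in females and 0.66 ± 0.15 in males (adjusted p = 0.008057 and 0.02377). For comparison, 2.49% of all genes passed in HT females and 0.206% in HT males, and in each sex 2 members, Sox18 and Foxq1, were among them.

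Sox17 and Kdr moved less in the HT mice. Sox17 ran from 112 to 201 normalized reads (median 165) under vehicle and from 167 to 256 (median 198) under fluoxetine, with 4 treated mice above the highest vehicle mouse. It rose by 0.30 ± 0.09 (limma adjusted p = 0.04513), so close to the threshold that leaving out any of 15 of the 20 mice ended the call (adjusted p up to 0.107). It stayed without HT fluoxetine female 3, female 5 or male 3, or HT vehicle female 1 or male 1. Kdr ran from 475 to 914 (median 710) under vehicle and from 772 to 1099 (median 903) under fluoxetine, and all 10 treated mice lay above the vehicle mean of their sex. It rose by 0.34 ± 0.09 (1.27-fold, adjusted p = 0.0215). The Kdr call ended without HT fluoxetine female 4 (adjusted p = 0.0568) or without HT vehicle male 2 (adjusted p = 0.0635). Thus 4 of 10 members rose and none fell in HT mice, where 3.54% of all genes passed (1.46% higher and 2.09% lower).

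In WT mice 1 member passed, Emcn, which was lower under fluoxetine. The 9 WT vehicle mice had 155 to 232 normalized reads of Emcn (median 182) and the 10 WT fluoxetine mice 120 to 161 (median 142). Of the treated mice 9 lay below the lowest vehicle mouse. Its log2 difference was -0.37 ± 0.10 (limma adjusted p = 0.04446), beside 1.38% of all genes (0.469% higher and 0.915% lower). Leaving out any of 15 of the 19 mice raised the adjusted p above the threshold, to at most 0.103. The call stayed without WT fluoxetine female 2, female 5 or male 2, or WT vehicle female 5. Sox17 was at 0.23 ± 0.09 (adjusted p = 0.2869), Sox18 at 0.24 ± 0.11 (adjusted p = 0.3913), Foxq1 at 0.23 ± 0.11 (adjusted p = 0.4284) and Tek at -0.25 ± 0.09 (adjusted p = 0.1934). In HT mice Emcn, at -0.07 ± 0.10, and Tek, at -0.23 ± 0.08 (adjusted p = 0.1312), did not pass.

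**Figure D2:**
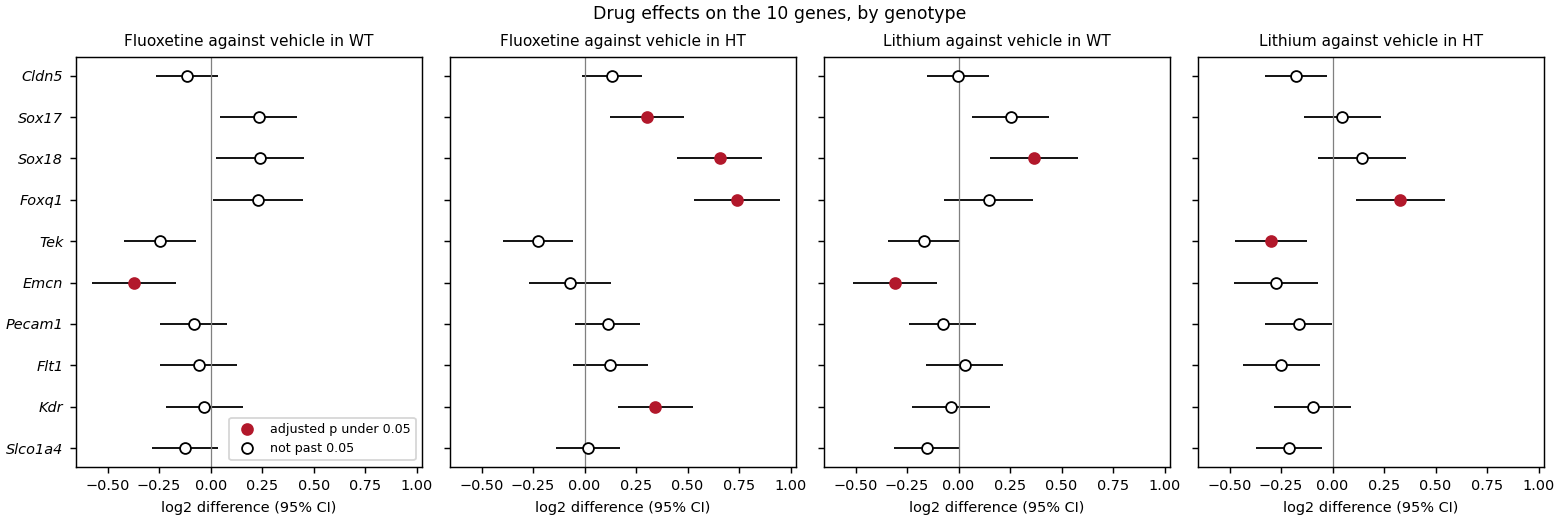
Log2 differences from vehicle (horizontal axes, with 95% intervals) of the 10 members (vertical axis) under fluoxetine and lithium, in WT and HT mice. Filled red points passed at an adjusted p under 0.05: Emcn under fluoxetine in WT, Sox17, Sox18, Foxq1 and Kdr under fluoxetine in HT, Sox18 and Emcn under lithium in WT, and Foxq1 and Tek under lithium in HT.

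No member's fluoxetine effect passed the test of a difference between genotypes. The interaction, HT effect minus WT effect, was 0.51 ± 0.15 for Foxq1, 0.42 ± 0.15 for Sox18, 0.37 ± 0.13 for Kdr, 0.30 ± 0.14 for Emcn and 0.24 ± 0.10 for Cldn5 (limma adjusted p = 0.7919 each). It was above 0 for all 10 members, with a median of 0.22, where 51% of all genes were above 0. The 26 other pan-endothelial genes had a mean interaction of 0.16 ± 0.08. No gene passed this interaction by limma (percent called 0%) or by edgeR, 1128 genes had an unadjusted p under 0.05, and DESeq2 called 2 genes. For lithium the interactions ran from -0.28 for Flt1 to 0.18 for Foxq1, with none called by limma or edgeR, 1196 genes at an unadjusted p under 0.05 and 4 called by DESeq2. No member passed a sex interaction by limma, where 0% of genes were called in 3 of the 4 and 0.0112% for fluoxetine in HT mice.

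Other vascular genes give the setting of the fluoxetine effects. The mean log2 level of the 26 other pan-endothelial genes moved by -0.0008 ± 0.04 over both genotypes, by 0.08 ± 0.05 in HT mice and by -0.08 ± 0.06 in WT mice. Of these 26 genes 1 rose, the adhesion receptor Adgrl4 at 0.20 ± 0.06, and none fell. With that mean as a term of the fit, an alternative chosen after seeing the data, Foxq1 stood at 0.48 ± 0.07, Sox18 at 0.45 ± 0.07, Sox17 at 0.27 ± 0.06, Tek at -0.24 ± 0.04 and Emcn at -0.22 ± 0.06 over both genotypes, and all 5 passed (limma adjusted p from 5.941e-06 to 0.02299). In HT mice Foxq1, Sox18 and Kdr rose with the term in place (0.70, 0.61 and 0.26), Tek fell (-0.33 ± 0.06, adjusted p = 0.000172) and Sox17 did not pass.

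With a term for Gm10221 reads, Foxq1 rose by 0.52 ± 0.10 and Sox18 by 0.42 ± 0.09 over both genotypes (limma adjusted p = 0.000342 and 0.004028), and no other member passed. In the 31 libraries without those reads Foxq1 rose by 0.51 ± 0.09 and Sox18 by 0.41 ± 0.10 (adjusted p = 0.001435 and 0.01977), and again no other member passed. The fluoxetine mice left in that fit were mainly males: 5 HT males, 5 WT males and the WT females without those reads, with no HT female. In HT mice the term left Foxq1 at 0.78 ± 0.13, Sox18 at 0.63 ± 0.12 and Kdr at 0.44 ± 0.11 past the threshold. There all 5 fluoxetine females and no fluoxetine male held the reads, so the reads cannot be told apart from sex under fluoxetine. With each sex fitted alone, Kdr stood at 0.19 ± 0.13 in HT females and at 0.50 ± 0.12 in HT males. Foxq1 and Sox18 passed at a similar size over both genotypes without the libraries that held Gm10221 reads. Sox17 (0.25), Tek (-0.19) and Emcn (-0.16) kept their signs over both genotypes and did not pass.

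**Figure D3:**
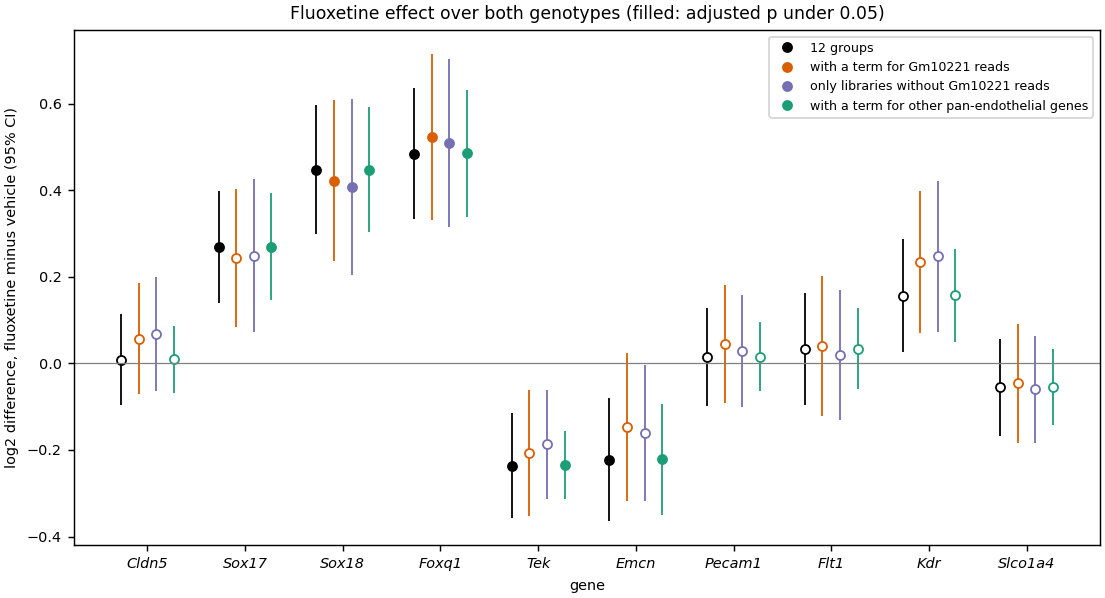
Log2 difference of fluoxetine from vehicle over both genotypes (vertical axis, with 95% intervals) for each member (horizontal axis), in 4 fits that are named in the key. Filled points passed at an adjusted p under 0.05; Sox18 and Foxq1 are filled in all 4 fits, and Sox17, Tek and Emcn are filled in the fit of 12 groups and in the fit with the term for other pan-endothelial genes.

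The lists of related pathways were read under fluoxetine over both genotypes beside 6.15% of all genes called (2.68% higher and 3.47% lower). In the VEGF and angiopoietin list 3 of 23 genes rose and 1 fell (list median 0.00, as for all genes): the VEGF family ligand Pgf at 0.31 ± 0.08, the angiopoietin Angpt2 at 0.30 ± 0.09, the receptor Notch4 at 0.20 ± 0.06, and the pericyte growth factor Pdgfb at -0.16 ± 0.05. Among 17 WNT pathway genes of brain endothelium none rose and 2 fell, the receptor Fzd4 (-0.34 ± 0.06) and the transcription factor Lef1 (-0.34 ± 0.09). Of 23 barrier transport and junction genes 2 rose, the exporter Abcc4 (0.32 ± 0.06) and the lipid transporter Mfsd2a (0.18 ± 0.04). In the list of flow and BMP response 2 of 16 rose, Smad6 (0.76 ± 0.11) and Klf6 (0.24 ± 0.03), and 1 fell, Smad7 (-0.45 ± 0.06). Smad6 and Smad7 encode inhibitory SMAD proteins. In the arterial list of 10 genes the peptide gene Edn1 rose (0.47 ± 0.09) and the connexin gene Gja5 fell (-0.48 ± 0.13). Of 8 venous and activated genes Tmem252 fell by 1.14 ± 0.12.

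Markers of other cells were read beside these values and beside the same 6.15% of all genes called (2.68% higher and 3.47% lower). Over both genotypes under fluoxetine, 1 of 16 pericyte and smooth muscle genes fell (Acta2, -0.25 ± 0.08), 2 of 6 red blood cell genes fell (Hbb-bs at -0.44 ± 0.13 and Hbb-bt at -0.46 ± 0.14, near-identical globin genes) and 1 of 8 astrocyte genes rose (Gjb6, 0.23 ± 0.06). None of 10 fibroblast, 11 microglia and macrophage, 8 neuron or 6 choroid plexus genes passed. In HT mice 11 of 11 microglia and macrophage genes and 8 of 10 fibroblast genes were above 0 (medians 0.14 and 0.15). None of them passed there, beside 3.54% of all genes. In the same comparison 8 of 10 members (median 0.13), 20 of 26 other pan-endothelial genes (0.06) and 9 of 16 pericyte and smooth muscle genes (0.06) were above 0. The part of these other cells was not tested. The summed pericyte and smooth muscle level ran from 7558 to 10735 normalized reads in HT vehicle mice and from 8457 to 11542 in HT fluoxetine mice, and the summed red blood cell level from 8123 to 21741 and from 7160 to 16592. The choroid plexus gene Otx2 was at 0 in some mice (median 4.40). Over both genotypes globin reads were thus lower under fluoxetine, as Tek and Emcn were. By sex they differed. The red blood cell list had medians of -0.07 in HT females, -0.65 in HT males, -0.21 in WT females and -0.57 in WT males. In the same order Tek stood at -0.31, -0.14, -0.23 and -0.26, and Emcn at -0.18, 0.04, -0.46 and -0.29. Within groups the red blood cell genes had a median correlation of -0.155 with the members, and their part in the results was not tested.

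Under lithium over both genotypes 5 of the 10 members passed, beside 24.3% of all genes (12.1% higher and 12.2% lower). Foxq1 and Sox18 rose by 0.24 ± 0.08 and 0.26 ± 0.08 (limma adjusted p = 0.01705 and 0.009384), and Emcn, Tek and Slco1a4 fell by 0.29 ± 0.07, 0.23 ± 0.06 and 0.18 ± 0.06 (adjusted p = 0.001858, 0.003709 and 0.01324). Sox17 (0.15 ± 0.07), Pecam1 (-0.12 ± 0.06), Flt1 (-0.11 ± 0.07), Cldn5 (-0.09 ± 0.05) and Kdr (-0.07 ± 0.07) did not pass. These comparisons share the vehicle mice with those of fluoxetine. All 19 lithium libraries held Gm10221 reads and no vehicle library did. From these libraries alone the drug and anything else that goes with those reads cannot be told apart.

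By genotype, lithium calls were near the threshold. In WT mice Sox18 ran from 114 to 202 normalized reads under vehicle (median 138) and from 129 to 261 under lithium (median 181), overlapping, and rose by 0.37 ± 0.11 (limma adjusted p = 0.02392). The call ended without WT lithium female 4, WT vehicle female 4 or WT vehicle male 4 (adjusted p = 0.0538, 0.0618 and 0.0642). Emcn ran from 102 to 193 (median 152) in WT lithium mice and fell by 0.31 ± 0.10, with an adjusted p of 0.04975 that rose above the threshold on leaving out any of 38 of the 58 mice (up to 0.118). In WT mice 7.47% of all genes passed (4.34% higher and 3.13% lower).

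In HT mice 16.3% of all genes passed under lithium (8.25% higher and 8.03% lower). Foxq1 rose by 0.33 ± 0.11 (limma adjusted p = 0.02872) and Tek fell by 0.30 ± 0.09 (adjusted p = 0.01407). Foxq1 ran from 64.6 to 116 normalized reads (median 97.4) in the 9 HT lithium mice, of which 5 lay above the highest vehicle mouse. Tek ran from 299 to 495 (median 441) against 422 to 623 (median 491) under vehicle, with 4 treated mice below the lowest vehicle mouse. The Tek call ended without HT lithium male 3 (adjusted p = 0.0606), and the Foxq1 call without HT lithium female 4, male 3 or male 4, or HT vehicle female 3 or male 2 (adjusted p up to 0.0975). Flt1 (-0.25 ± 0.09), Slco1a4 (-0.21 ± 0.08), Emcn (-0.27 ± 0.10) and Cldn5 (-0.18 ± 0.07) had adjusted p = 0.05722, 0.05817, 0.0561 and 0.1008. In HT females, Tek fell by 0.45 ± 0.12 and Cldn5 by 0.34 ± 0.10 (adjusted p = 0.01567 and 0.03334, beside 6.85% of all genes), and in HT males Foxq1 rose by 0.54 ± 0.16 (adjusted p = 0.04572, beside 2.99%). Fitted in the females alone Tek passed and Cldn5 did not (adjusted p = 0.0483 and 0.05025), and fitted in the males alone Foxq1 did not pass (adjusted p = 0.06855).

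Under lithium over both genotypes the other lists were read beside 24.3% of all genes called (12.1% higher and 12.2% lower). Here 25 of 26 other pan-endothelial genes had values below 0 (list median -0.12, all genes 0.00), and 7 fell, among them the phosphatase gene Ptprb (-0.30 ± 0.06), Ushbp1 (-0.35 ± 0.07), the lectin gene Clec14a (-0.32 ± 0.08) and the transcription factor Ets1 (-0.20 ± 0.06). Of 17 WNT pathway genes 4 fell and none rose: Lef1 (-0.42 ± 0.09), the feedback target Axin2 (-0.14 ± 0.03), the co-receptor Lrp6 (-0.11 ± 0.03) and Fzd4 (-0.16 ± 0.06). In the barrier list 4 of 23 rose and 4 fell, with Abcc4 at 0.30 ± 0.06, the transferrin receptor Tfrc at -0.29 ± 0.05, Itm2a at -0.20 ± 0.05 and Mfsd2a at 0.12 ± 0.04. In the VEGF and angiopoietin list 3 of 23 rose and 6 fell, with Angptl4 at 0.55 ± 0.14 and the ligand Apln at -0.47 ± 0.12. Pericyte and smooth muscle genes fell in 3 of 16 (Notch3, Tagln and Pdgfrb at -0.15, -0.23 and -0.10), and 14 of the 16 were below 0 (median -0.105). No red blood cell gene passed, but 6 of 6 were below 0 (median -0.27). The part of both lists in the members' values was not tested. With the mean of the other pan-endothelial genes as a term, Tek, Emcn and Slco1a4 no longer passed, and Sox17 (0.23 ± 0.07), Sox18 (0.34 ± 0.08) and Foxq1 (0.31 ± 0.08) rose (limma adjusted p = 0.01357, 0.002108 and 0.006134).

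Lithium and fluoxetine were then compared directly, with no vehicle mouse in the contrast. In HT mice all 10 members were lower under lithium than under fluoxetine (median -0.29, all genes 0.00), and 6 of 10 passed, beside 6.25% of all genes (3.19% higher and 3.06% lower). Sox18 stood at -0.51 ± 0.11 (limma adjusted p = 0.002308), Kdr at -0.44 ± 0.09 (adjusted p = 0.002683), Foxq1 at -0.41 ± 0.11 (adjusted p = 0.01517), Flt1 at -0.37 ± 0.09 (adjusted p = 0.01003), Cldn5 at -0.31 ± 0.07 (adjusted p = 0.008893) and Pecam1 at -0.28 ± 0.08 (adjusted p = 0.02849). Flt1 ran from 1240 to 2429 normalized reads (median 1803) in HT fluoxetine mice and from 915 to 1872 (median 1383) in HT lithium mice. Cldn5 ran from 947 to 1372 (median 1072) and from 728 to 1029 (median 860). For both genes the ranges overlapped. The Foxq1 call ended without HT lithium male 1 (adjusted p = 0.0554), and the Pecam1 call without HT fluoxetine female 4 or male 1, or HT lithium female 4 or male 3 (adjusted p up to 0.101).

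Other endothelial genes were also lower. All 26 other pan-endothelial genes were lower (mean difference -0.25 ± 0.06), and 9 passed, among them Ptprb (-0.37 ± 0.08), the nitric oxide synthase gene Nos3 (-0.33 ± 0.08), Ets1 (-0.38 ± 0.09) and Ushbp1 (-0.40 ± 0.10). With their mean as a term no member passed. With a term for Gm10221 reads Sox18 passed (-0.55 ± 0.13, limma adjusted p = 0.0161) and the other members did not. Flt1 then stood at -0.38 ± 0.11, Foxq1 at -0.37 ± 0.13, Kdr at -0.35 ± 0.11, Cldn5 at -0.26 ± 0.09 and Pecam1 at -0.25 ± 0.09 (adjusted p = 0.06516, 0.1314, 0.1001, 0.1237 and 0.1666). Markers of other cells moved beside these values. Of 16 pericyte and smooth muscle genes 15 were below 0 (median -0.12) and 1 fell, the channel regulator gene Abcc9 (-0.48 ± 0.09), and of 11 microglia and macrophage genes 10 were below 0 (median -0.10) and 1 fell, the chemokine receptor gene Cx3cr1 (-0.27 ± 0.06). Their part in the members' differences was not tested. In WT mice no member passed by limma, with values from -0.08 for Foxq1 to 0.13 for Sox18, while 9.55% of all genes passed (5.29% higher and 4.26% lower) and 4088 genes had an unadjusted p under 0.05.

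The genotype comparison asked whether HT and WT mice differed within a drug arm. No gene passed by limma in any of the 3 arms (percent called 0%), or by edgeR, although 814, 1114 and 2006 genes had an unadjusted p under 0.05 under vehicle, fluoxetine and lithium, and DESeq2 called 3, 2 and 14. Under vehicle the members ran from -0.20 ± 0.11 for Foxq1 to 0.13 ± 0.09 for Sox17. Under fluoxetine all 10 were above 0 (median 0.24), with Sox18 at 0.36 ± 0.10, Cldn5 at 0.32 ± 0.07, Foxq1 at 0.31 ± 0.10 and Kdr at 0.31 ± 0.09 (limma adjusted p = 0.5119, 0.3012, 0.6724 and 0.5119). Cldn5 ran from 763 to 1086 normalized reads (median 822) in WT fluoxetine mice, against 947 to 1372 in HT fluoxetine mice. Of the 26 other pan-endothelial genes 25 were above 0 in that arm (median 0.12). So were 9 of 11 microglia and macrophage genes (median 0.12), 9 of 10 fibroblast genes (0.06) and 9 of 16 pericyte and smooth muscle genes (0.02). The part of these other cells was not tested. Under lithium all 10 members were below 0 (median -0.09), with Sox18 at -0.28 ± 0.11 and Flt1 at -0.23 ± 0.09 (adjusted p = 0.2842 and 0.3314). In that arm 20 of the 26 other pan-endothelial genes and 16 of 16 pericyte and smooth muscle genes were also below 0 (medians -0.11 and -0.12), and the part of the latter was not tested.

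Across arms, mean Sox18 ran from 138 ± 21.2 normalized reads (SD, n = 10) in HT vehicle, 146 ± 29.6 (n = 9) in WT vehicle, 152 ± 22.4 (n = 9) in HT lithium, 171 ± 32.6 (n = 10) in WT fluoxetine and 188 ± 39.6 (n = 10) in WT lithium to 219 ± 39.5 (n = 10) in HT fluoxetine. Each arm lay within 1 SD of its neighbour in that order. Mean Foxq1 ran from 73.3 ± 15.2 in HT vehicle, 83.1 ± 8.87 in WT vehicle, 92.0 ± 16.5 in HT lithium, 94.0 ± 24.3 in WT lithium and 98.1 ± 15.1 in WT fluoxetine to 122 ± 16.0 in HT fluoxetine. For Foxq1 the step from WT fluoxetine to HT fluoxetine was larger than either SD, and no other step exceeded the greater SD of its pair.

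Females and males were compared over all arms, a comparison chosen after seeing the data. All 10 members had higher values in females (median 0.10), and none passed, beside 0.301% of all genes. The values ran from 0.04 ± 0.05 for Kdr to 0.17 ± 0.05 for Flt1 and 0.19 ± 0.06 for Sox18 (limma adjusted p = 0.8909, 0.1961 and 0.1967). In HT vehicle mice all 10 were above 0 (median 0.30), in HT lithium mice 5 were above 0 (median 0.00), and in WT fluoxetine mice 2 were (median -0.09). Over all arms 21 of 26 other pan-endothelial, 15 of 16 pericyte and smooth muscle, and 10 of 10 fibroblast genes were also above 0. So were 10 of 11 microglia and macrophage genes and 6 of 6 red blood cell genes, but 3 of 8 neuron genes. In HT vehicle mice 15 of 16 pericyte and smooth muscle, 10 of 10 fibroblast and 11 of 11 microglia and macrophage genes were above 0. Their part was not tested.

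Lastly, the members were compared with each other from mouse to mouse, as deviations of log2 levels from the 12 group means. Over 45 pairs Pearson's r ran from -0.03 to 0.78, with a median of 0.32 and 9 pairs over 0.5. The receptor, adhesion, junction and transport genes followed each other (21 pairs, median 0.44). The 3 transcription factors did so less (3 pairs, median 0.21, from 0.19 to 0.39), and the 21 pairs between both kinds had a median of 0.22; this division was chosen after seeing the values. The closest pair was Tek and Flt1 (r = 0.776, Spearman's rho = 0.739, permutation p = 1e-05 each, the smallest that 100000 permutations can give, and 0.00015 adjusted over 45 pairs). Without the 2 mice farthest from the median of Tek r was 0.726, in libraries with Gm10221 reads 0.80 and in libraries without them 0.745. Tek and Slco1a4 followed (r = 0.752, rho = 0.708, with r at 0.681 without 2 mice, 0.865 in libraries with Gm10221 reads and 0.572 in those without). Sox18 and Foxq1 had r = 0.21 and rho = 0.198 (permutation p = 0.153 and 0.174). All values of a mouse share a library and its depth.

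**Figure D4:**
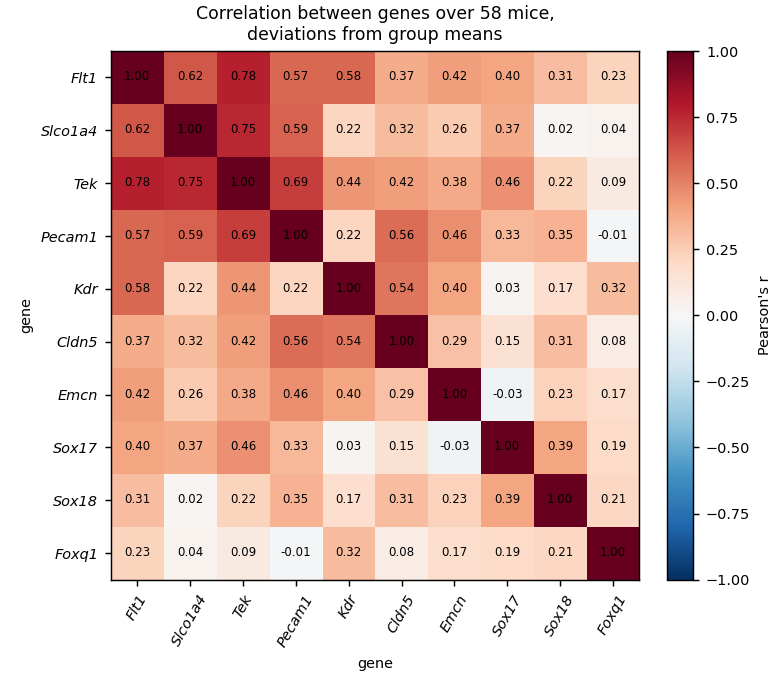
Pearson's r (colour and number, key from -1 to 1) between the members over 58 mice, from log2 levels less the mean of each of the 12 groups. Genes are in the same order on both axes. Flt1, Slco1a4, Tek and Pecam1 form a block of high values, from 0.574 to 0.776. The row of Foxq1 reaches at most 0.319, with Kdr.

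Among the genes outside the set that were most like it, by Pearson's r with the mean z-score of the 10 members over 58 mice, were Cd93 (0.76), Podxl (0.758), Adgrf5 (0.747), Cdh5 (0.746), Ptprb (0.73), Acvrl1 (0.729), Rgs5 (0.724), Sft2d2 (0.716) and Fermt2 (0.707). Of these genes 5 stood in the list of other pan-endothelial genes. That list had a median r of 0.589, pericyte and smooth muscle genes 0.45, barrier genes 0.446, astrocyte genes 0.417, microglia genes 0.384 and neuron genes -0.082, against -0.007 for all genes tested. Single mice stood out in the same measure: HT fluoxetine female 4 was highest of its group for 8 members, WT lithium female 4 for 9 members and WT lithium male 2 for 7, while HT fluoxetine male 3 and WT vehicle male 1 were lowest for 7 each.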

How the data were processed

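Strand-specific libraries of polyadenylated RNA were sequenced, per the labels' protocols. The authors deposited a signal, namely counts that were scaled by library size factors. The submitters' processing notes name Salmon 0.11.2, R 3.6.0 and DESeq2 1.19.11 and GRCm38, with options not given in the sources used here. Division by size factors hides a general shift in RNA content. What 1 read is worth lay between 0.788 and 1.303 in the libraries, and after division 100% of values came out whole within 0.01 of a read, so reads were recovered (in 11 libraries the step is within 1% of 1, where this check cannot tell reads from rounded values). No pair of libraries agreed within sampling noise (1653 pairs, lowest chi-square per degree of freedom 3.15).

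The filter asked for a minimum of 10 in 4 or more libraries, which 17925 genes met. limma 3.58.1 with trend was fitted on log2(value + 1) with 12 groups of genotype, drug and sex, each contrast weighing the sexes equally; this scale understates changes of low genes. P-values were two-sided and adjusted over all genes kept, with a threshold of 0.05; ± is the SE unless SD is named. The fit was tested on simulated data. The members and the 14 other lists were chosen with earlier results of these data known. All members are named, with up to 4 genes of a list by the smallest p among those that passed, and genes from the 10 most like the members, of which 1 is not reported here. Replicate numbers did not pair the libraries: 7 of 37 pairs had a correlation over 0.1 (mean -2e-04 for the same number). Symbols came from GENCODE release M21 (18077 identifiers found). Alternatives were edgeR 4.0.16 and DESeq2 1.42.0 on the recovered reads, quantile normalization, no filter and a minimum of 50, pseudocounts of 0.1 and 5, the groups compared alone, a replicate block, a term for Gm10221 reads with sex as an additive term, the libraries without them, each sex alone and each library left out. The term for other pan-endothelial genes, the contrast of the sexes and effects within a sex were added after seeing the data.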

Additional observations from a re-analysis of the deposited data

Results flagged for a closer look

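Of 120 groups of 4 or 5 mice, taken for each of the 10 members, 2 held a mouse far from the others of its group, where chance gives about 1 in 20 groups. For Flt1, HT fluoxetine female 4 had 2429 normalized reads, against 1789 to 1889 in the other 4 mice of its group. For Slco1a4, WT vehicle female 1 had 2157 normalized reads, against 1504 to 1674 in the other 4.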

How the results depend on the processing

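The number of members that passed is given here under each alternative that moved it by more than 1.5 times; no called member reversed its direction, while 236 values that were called in neither fit changed sign. For fluoxetine in WT (1 member) the number was 0 with quantile normalization, with the replicate block, with the Gm10221 term, in libraries without Gm10221 reads, in females alone, in males alone and with the pan-endothelial term. For fluoxetine in HT (4) it was 2 in libraries without Gm10221 reads, 2 in females alone and 2 in males alone; over both genotypes (5) it was 2 with the Gm10221 term, 2 without libraries holding those reads, 1 in females alone and 2 in males alone. For lithium in WT (2) it was 1 with edgeR, quantile normalization, no filter or the replicate block, and 0 with the Gm10221 term, in females alone and in males alone. For lithium in HT (2) it was 0 with the Gm10221 term, 1 in females alone, 0 in males alone and 1 with the pan-endothelial term; over both genotypes (5) it was 0 with the Gm10221 term, 2 in females alone, 0 in males alone and 3 with the pan-endothelial term. For lithium against fluoxetine in HT (6) it was 3 with only the groups compared, 1 with the Gm10221 term, 0 in either sex alone and 0 with the pan-endothelial term. A single sex has fewer mice. For lithium against vehicle the Gm10221 term also came with larger SEs. The other causes were not tested.

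Leaving out each library in turn gave 0 to 1 members for fluoxetine in WT, 2 to 4 for fluoxetine in HT, 0 to 2 for lithium in WT, 0 to 4 for lithium in HT, 5 to 8 for lithium against fluoxetine in HT, 4 to 5 for fluoxetine and 5 to 5 for lithium over both genotypes, and 0 in the other comparisons. For lithium in HT the number was 0 without HT lithium male 3, 1 without HT lithium female 4 or HT vehicle female 3, and 4 without HT lithium female 1 or HT vehicle male 1. Foxq1 and Sox18 under fluoxetine in HT passed under all 14 alternatives and without any 1 library. The Emcn call under fluoxetine over both genotypes ended without any of 35 libraries (adjusted p up to 0.0871). With the replicate block, whose numbers do not pair the mice, the limma adjusted p of Emcn went to 0.0559 for fluoxetine in WT, 0.0585 for lithium in WT and 0.0539 for fluoxetine over both genotypes; no other member's call changed with it.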
